A study of Lotus japonicus with 36 samples.

Results

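Root nodules of the legume Lotus japonicus (genotype MG-20) were compared between day 4 and day 5 of nitrate supply. The comparison rests on 6 of the 36 RNA-seq libraries of a daily time course, 3 from nodules given 10 mM KNO3 for 4 days (T4) and 3 from nodules given it for 5 days (T5), chosen by their sample titles. The other groups used here, of 3 libraries each, are untreated nodules at 4 weeks after inoculation (T0), nodules on days 1, 2, 3 and 6 of the same nitrate supply (T1, T2, T3 and T6), and nodules on days 1 to 5 after nitrate was removed (R1 to R5). All groups share the genotype and the tissue. The series calls the 3 libraries of a group biological replicates. No untreated nodules of a later age are among these groups, so the day of nitrate and the age of the plant cannot be told apart, and each day is a harvest of its own.

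Nodules are root organs in which rhizobia, housed inside plant cells, reduce atmospheric nitrogen in exchange for carbon. Leghaemoglobins in the infected cells bind oxygen and protect the bacterial nitrogenase. Plants that find nitrate in the soil stop forming nodules, and mature nodules kept on nitrate lose fixation and enter a senescence that can be partly reversed when nitrate is withdrawn. Whole nodules were extracted, so fewer cells of a type and less RNA per cell cannot be told apart. The transcript models carry identifiers only. No identifier could be paired with a gene name in the sources used here, so no function is given for any of them, the labelled tissue could not be checked against marker genes, and a transcript model, of which a locus can hold several, is the unit of every count.

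The T4 libraries held 37902255, 38139217 and 38058943 counts and the T5 libraries 42168025, 39185025 and 39784186, within the range of 34194054 to 45795038 over all libraries. The 3 T5 libraries differed more among themselves than those of any other nitrate day or of T0. The median absolute difference between a pair of T5 libraries was 0.31 on the log2 scale on average, beside 0.22 for T4 and 0.20 to 0.25 for T0, T1, T2, T3 and T6, over 33591 models at a mean of at least 1 CPM, the count of a model scaled to the library total. T5 replicates 1 and 2 were 0.40 apart, which is more than the average T5 library lay from a T4 library (0.37, range 0.27 to 0.44 over 9 pairs). Their scaling factors were 0.87 and 1.12, beside 1.02 to 1.12 in T4. The counts of calls are therefore also given without each library.

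Between day 4 and day 5, 1905 transcript models (3.77%) rose and 1054 (2.09%) fell, together 2959 of 50475 tested (5.86%). A model was called when its Benjamini-Hochberg adjusted p in edgeR's quasi-likelihood test was under 0.05 and its change was 2-fold or more. Dropping the fold criterion left 6022 models (11.9%), and 12178 had an unadjusted p under 0.05. The median called riser gained 1.59 and the median called faller changed by -1.42 on the log2 scale, while the median over all tested models was 0.03. At least 4-fold changes numbered 665 upward and 225 downward, and at least 8-fold changes 320 and 86. The rises of at least 8-fold include many short models with neighbouring identifiers, whose counts are mostly not whole numbers. Such models can share reads, so these numbers count models and not separate rises. The T4 and T5 libraries did not overlap for 1858 of the 1905 risers and 1019 of the 1054 fallers, counts that the choice of the models largely fixes, beside 26.8% of all tested models.

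The rises outnumbered the falls in the full set of libraries, but their share rested on single libraries. Risers made up 64.4% of the calls. Without T5 replicate 1 there were 1637 risers and 1466 fallers, so that risers made up 52.8%, and without T4 replicate 3 there were 1149 and 958, or 54.5%. Without any other of the 6 libraries the share lay between 62.7% and 65.9%. The number of risers thus fell by more than 1.5 times without T4 replicate 3, which held the lowest T4 value for 908 of the 1905 risers (47.7%). T5 replicate 2 held the lowest T5 value for 645 of the 1054 fallers (61.2%), and without it 819 fallers were called.

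Leaving out a library removed many calls. In all 6 fits that each lacked 1 library of T4 or T5, 901 risers (47.3%) and 506 fallers (48.0%) were called again. In any of these fits, 0 of the 2959 models were called in the opposite direction. The choice of the models largely fixes this 0, as their T4 and T5 libraries mostly did not overlap. Of the 6 fits, 4 gave fewer calls than the full set of libraries and 2 gave more, 3042 without T4 replicate 1 and 3103 without T5 replicate 1. The loss was largest for risers without T4 replicate 3, where 1106 of 1905 were called again, and for fallers without T5 replicate 2, where 640 of 1054 were.

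**Figure D1:**
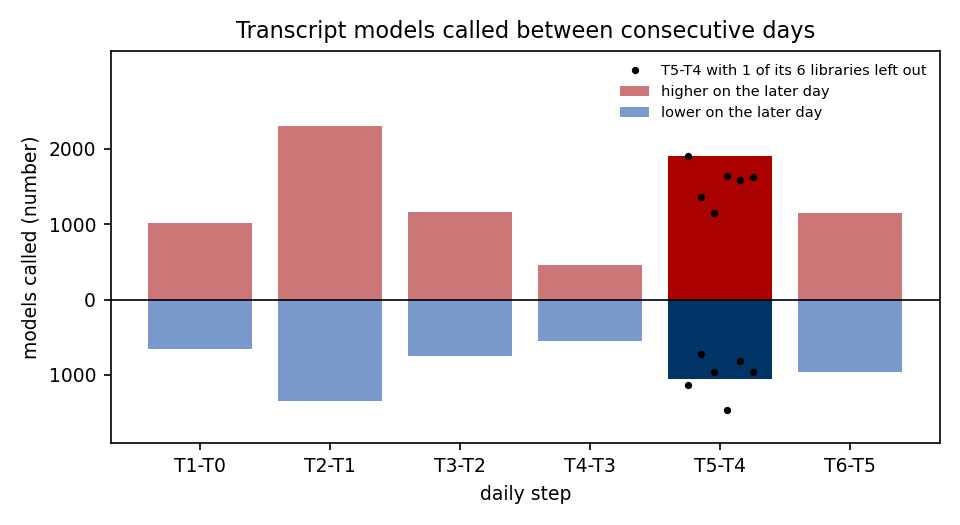
Number of transcript models called higher (above 0) and lower (below 0) at each daily step of nitrate supply, with T5-T4 in darker colour and black points for the T5-T4 counts with 1 of its 6 libraries left out. T5-T4 has 1905 risers and 1054 fallers, beside 463 and 555 for T4-T3, and its points run from 1149 to 1908 upward and from 724 to 1466 downward.

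The step from day 4 to day 5 was next set beside the other daily steps of nitrate supply, to ask whether change picked up late in the course. By number of calls it did. The step from T3 to T4 had 463 rises and 555 falls (2.02% of the models), less than the step from T2 to T3 with 1159 and 743 (3.77%), and the step from T5 to T6 had 1144 and 963 (4.17%). Among these nitrate steps, the step from T4 to T5 held more calls than any other except the step from T1 to T2, with 2306 rises and 1344 falls (7.23%). The first day of nitrate, T1 against T0, gave 1665 calls (3.3%). Counted by model, rises of at least 8-fold were also more numerous than at any other nitrate step. The 320 rises of at least 8-fold at T5-T4 compare with 19 at T4-T3, 126 at T6-T5, 253 at T3-T2, 223 at T2-T1 and 130 at T1-T0. Large falls did not lead in this way. Falls of at least 8-fold numbered 86 at T5-T4, beside 110 at T4-T3, 81 at T6-T5, 30 at T3-T2, 140 at T2-T1 and 26 at T1-T0. Models that can share reads are counted singly in all of these numbers. Many of the 320 rises are short models in a run of neighbouring identifiers, and 277 of the 320 began under 1 CPM in T4. How many separate rises the 320 hold was not counted. Their lead over the 253 at T3-T2 may thus not hold for separate rises. Neighbouring steps share a group of libraries, so their counts are not independent.

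With each of the 12 libraries of T3, T4, T5 and T6 left out in turn, T5-T4 always kept more calls than both its neighbours. Its count ran from 2089 to 3103, that of T4-T3 from 417 to 1166 and that of T6-T5 from 1271 to 2714. The lead over T6-T5 was smallest without T4 replicate 2, at 2089 calls beside 2057. The T4-T3 count was 1018 with all libraries, 503 without T3 replicate 1, 417 without T3 replicate 2, 567 without T4 replicate 1, 631 without T4 replicate 2 and 519 without T4 replicate 3. The T6-T5 count, 2107 with all libraries, was 1271 without T5 replicate 2, 1328 without T5 replicate 3 and 1301 without T6 replicate 1. The T3-T2 count was 1128 without T3 replicate 3, beside 1902.

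The average distance between libraries of neighbouring days was 0.37 for T5-T4, beside 0.30 for T4-T3, 0.35 for T6-T5 and 0.36 for T2-T1. The spread among the T5 libraries, 0.31 on average, enters the values for T5-T4 and T6-T5. The length of the step along the course did not show the same contrast as the calls. Each library was placed on the line from the mean of T0 (0%) to the mean of T6 (100%) in log2 CPM, over the 20056 models (39.7%) called between T6 and T0, so that the libraries of T4 and T5 had no part in setting the line. The T4 libraries lay at 70.1%, 66.5% and 67.2% and the T5 libraries at 85.9%, 85.6% and 81.1%. The groups did not overlap, and T5 was 16.3 ± 1.89 points (SE) further along than T4 (two-sided exact permutation p = 0.1, the smallest that 3 against 3 allows). The step from T3 to T4 measured 13.5 ± 5.07 points and that from T2 to T3 17.0 points (exact permutation p = 0.1 for each). The step from T1 to T2 was the longest of the 4 that end between T2 and T5, at 25.1 points (exact permutation p = 0.1).

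On this line the step from T4 to T5 exceeded that from T3 to T4 by 2.78 ± 5.63 points (SE), less than its own error. The T3 libraries were spread over 46.2%, 53.8% and 63.3%, with an SD of 8.57 points beside 1.89 in T4 and 2.68 in T5. Without T3 replicate 3 the excess was -1.66 points and without T3 replicate 1 it was 6.90 points. A longer step at this point of the course was therefore not detectable on the line through T0 and T6, although the step held 2959 calls beside 1018 in the step before it. On another line, from T3 (0%) to T6 (100%) over the 9002 models (17.8%) called between those groups, chosen after the first result was seen, T4 lay at 20.9 ± 2.12% and T5 at 62.3 ± 3.30% (SD, n = 3). There the step from T4 to T5 measured 41.3 points (exact permutation p = 0.1), the step from T3 to T4 20.9 points and the step from T5 to T6 37.7 points. The T3 and T6 libraries set this line, so the steps that begin or end with them are not independent of it, and the T3 libraries themselves spanned -14.1% to 14.5%.

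**Figure D2:**
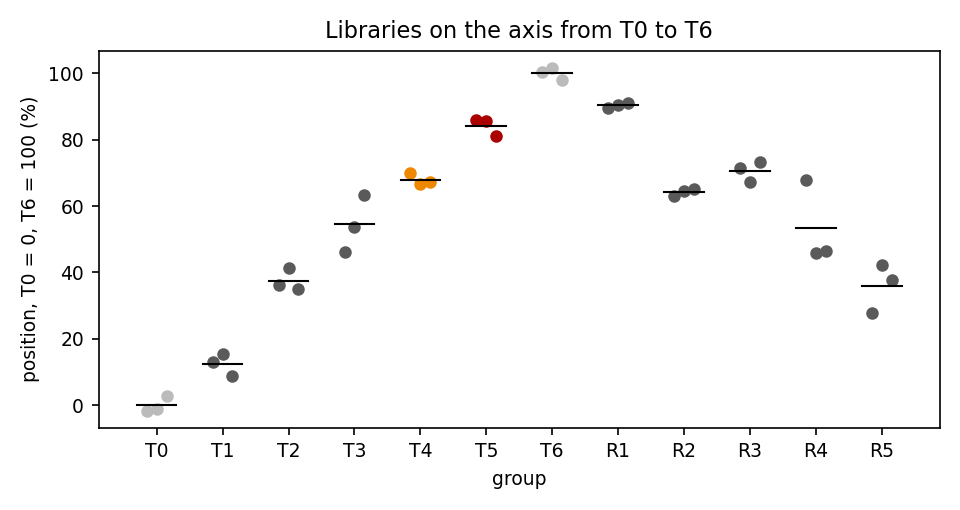
Position of each library on the line from the mean of T0 (0%) to the mean of T6 (100%), with 1 point per library and a bar at the group mean; T0 and T6, in light grey, set the line. T4 (orange) lies at 66.5% to 70.1% and T5 (red) at 81.1% to 85.9%, and the T3 libraries run from 46.2% to 63.3%.

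Whether the signed change of a single model from T4 to T5 differed from that from T3 to T4 was tested with the difference of the 2 steps as a contrast. A model also passes when it moved in opposite directions at the 2 steps, whichever step was larger. In 1110 models (2.2%) it passed, 644 with a positive and 466 with a negative difference. This number was not stable: it was 250 without T4 replicate 2, 298 without T4 replicate 3, 668 without T3 replicate 2, 714 without T5 replicate 3 and 1482 without T5 replicate 1. Against the step from T2 to T3, which shares no library with T5-T4, the difference passed in 1515 models (3%), 1019 positive and 496 negative, with 1011 to 1634 when a library was left out. Against the following step, T5 to T6, it passed in 1566 models (3.1%), 590 positive and 976 negative, in 645 without T5 replicate 2, in 829 without T5 replicate 3 and in 2111 without T5 replicate 1.

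On the scale of log2(CPM + 1) of the group means, the models that changed from T4 to T5 had changed little from T3 to T4 by their median. The risers had a median difference from T4 of 0.01 in T3, -0.07 in T2 and -0.23 in T0, and then of 1.11 in T5. The fallers had a median of 0.06 in T3, 0.50 in T2 and 0.63 in T0, and -0.98 in T5. The T4 libraries chose these models, so their own level enters each of these medians. Changes at levels under 1 CPM weigh little on this scale. The 320 risers of at least 8-fold had a median level of 0.459 CPM in T3 and a lower one, 0.133 CPM, in T4.

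On day 6 the new levels were still there. The medians were 1.13 for the risers and -0.87 for the fallers. The T6 libraries had no part in choosing these models, but the T4 libraries, whose mean these medians are set against, did. Per library the risers lay at 0.93, 1.26 and 1.14 in T6 beside 1.10, 1.06 and 1.15 in T5, and the fallers at -0.84, -0.91 and -0.85 beside -0.82, -1.15 and -0.92. The ranges of both days overlapped for risers and for fallers. All tested models together had medians of 0.02 in T5 and -0.03 in T6.

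**Figure D3:**
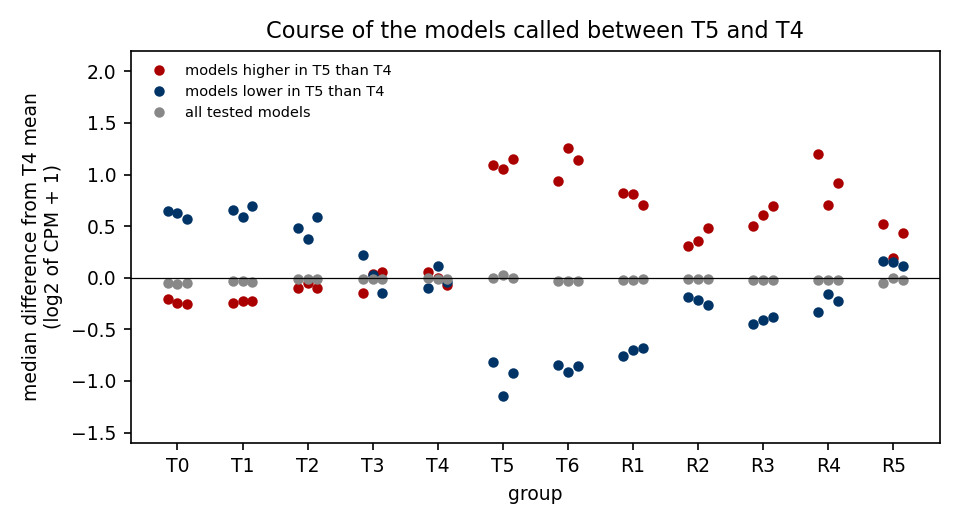
Median difference of each library from the T4 mean, in log2 of CPM + 1, for the 1905 models higher in T5 than T4 (red), the 1054 lower ones (blue) and all 50475 tested models (grey), 1 point per library. Both called sets lie near their T4 level in T3 and keep their T5 level in T6, with group medians of 1.11 and 1.13 for the risers and -0.98 and -0.87 for the fallers.

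A test with other libraries was at hand in the comparison of T6 with T3, which uses none of the 6 libraries that made the calls, although it belongs to the same fit. Of the 1905 risers 1386 (72.8%) were called higher in T6 than in T3, beside 9.22% of all tested models. Of the 1054 fallers 719 (68.2%) were called lower, beside 8.62%. Only 16 risers (0.84%) and 6 fallers (0.569%) were called in the opposite direction. The sign of the change was shared by 92.6% of the risers and 91.8% of the fallers, where 46.3% of all models had a positive and 53.6% a negative sign. Read the other way, 29.8% of the 4653 models higher in T6 than in T3 and 16.5% of the 4349 lower ones were among the T5-T4 calls. Of the risers and fallers called again in every fit that lacked a library, 732 and 391 were also called in T6 against T3.

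The same comparison shows where the late rises fell. For the 4653 models higher in T6 than in T3, the median log2 change was 0.44 from T3 to T4, 0.82 from T4 to T5 and 0.62 from T5 to T6. For the 4349 lower models it was -0.47, -0.56 and -0.69. The middle step was thus the largest of the 3 for the risers and not for the fallers. The T3 and T6 libraries chose these models and enter the outer steps only. Whether risers and fallers differ in this was not tested.

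Most of the largest rises began from low levels, which helps a model to enter this class. Of the 320 risers of at least 8-fold, 277 had a mean under 1 CPM in T4, and 6 had at least 10 CPM, with the highest at 30.5 CPM. The 320 risers of at least 8-fold had a median level of 0.185 CPM in T0, 0.459 CPM in T3 and 0.133 CPM in T4, and then of 2.87 CPM in T5 and 4.44 CPM in T6. Of these, 260 (81.2%) were also higher in T6 than in T3 by call, beside 69.8% of the 1240 risers of 2 to 4-fold. The 86 fallers of at least 8-fold were rare transcripts, with a median of 0.361 CPM in T4 and 0.0247 CPM in T5. Of these 86, 52 (60.5%) were called lower in T6 than in T3, beside 8.62% of all tested models. In 49 risers no count was found in any T4 library, and their T5 means lay between 0.0722 and 4.36 CPM with a median of 0.235 CPM. Only 10 of the 49 also had no count in any T3 library, so most of them had counts before T4 and did not first appear in T5. All 49 had counts in T6, and 26 of them were called higher there than in T3, beside 9.22% of all tested models. In 23 fallers no count was found in T5, from T4 means of at most 0.381 CPM. Of these, 15 had counts again in T6, and 9 were called lower in T6 than in T3, beside 8.62%. Counts in a group are the rule, as 408 of the 50475 tested models had none in T4 and 227 none in T5. No called model went from 0 counts in T4 to more than 4.36 CPM in T5.

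The risers differed in the course they had taken before. Of the 1905 risers, 648 (34.0%) were already above T0 by call in T3, beside 13.1% of all models. Another 1015 (53.3%) were not called in T3, beside 38413 of all 50475 tested models, which is a larger share. T6 against T0, which shares the T0 libraries with that comparison, called 20.4% of all models higher and 19.4% lower. Of the 1015 risers not called in T3, 723 (71.2%) were above T0 in T6, beside 11.9% of all models not called in T3. A smaller group of 242 risers (12.7%) stood below T0 in T3, beside 10.8% of all models. Of these, 101 were no longer called against T0 in T6, 99 (40.9%) were still lower and 42 (17.4%) were higher. Of all 5441 models below T0 in T3, 84.8% were lower and 0.901% higher in T6. Among the 1054 fallers 420 (39.8%) were below T0 in T3 already, beside 10.8%, and 418 of them (99.5%) were so in T6, beside 84.8% of all models below T0 in T3. Another 120 fallers (11.4%) had been above T0 in T3, beside 13.1% of all models, and 76 of those (63.3%) were so in T6, beside 85.3% of the 6621 models above T0 in T3. These shares were not compared by a test.

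The fallers included some of the most abundant transcripts of the untreated nodule. Together the 1054 fallers took 17.3 ± 0.70% of all counts in T0 and 15.9 ± 0.54% in T1 (SD, n = 3), groups that had no part in their choice. Their share was 9.11 ± 0.95% in T2, 5.21 ± 1.75% in T3, 4.40 ± 0.66% in T4, 1.55 ± 0.24% in T5 and 1.49 ± 0.22% in T6. Most of their loss of counts thus came before day 4. The 1905 risers went from 1.47 ± 0.022% in T0 and 1.98 ± 0.35% in T3 through 2.26 ± 0.22% in T4 to 6.02 ± 0.45% in T5 and 7.37 ± 0.42% in T6. For the risers most of the gain in share came between T4 and T5, the days that chose them. By library, the risers held 2.50%, 2.22% and 2.06% of the counts in T4 and 5.51%, 6.19% and 6.35% in T5, and the fallers 3.76%, 5.08% and 4.38% in T4 and 1.74%, 1.28% and 1.64% in T5.

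**Figure D4:**
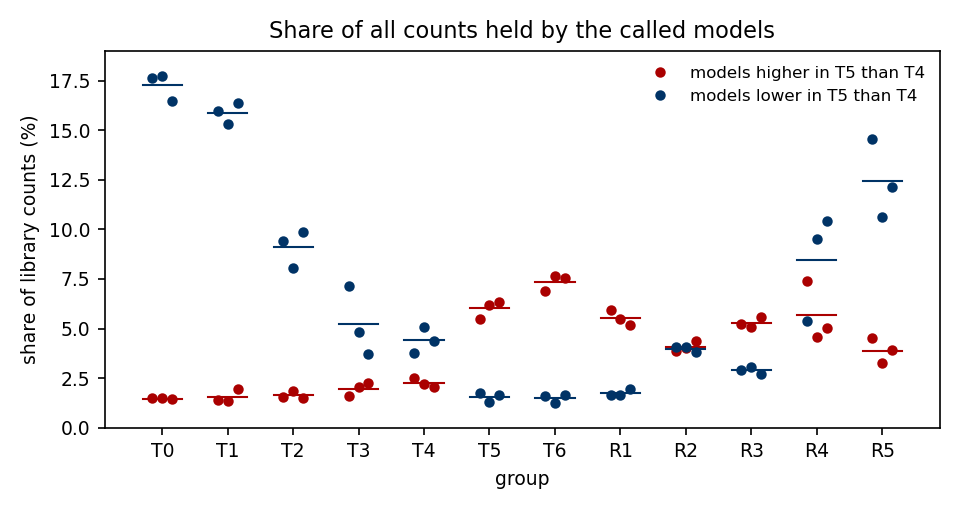
Share of all counts of each library held by the 1905 risers (red) and the 1054 fallers (blue) of T5 against T4, with 1 point per library and a bar at the group mean. The fallers go from 17.3% in T0 to 4.40% in T4 and 1.55% in T5 and are at 12.4% in R5, and the risers go from 2.26% in T4 to 6.02% in T5.

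Of the fallers, the 5 most abundant in T4 held 5.48 ± 0.41% of all counts in T0, 1.10 ± 0.22% in T4, 0.409 ± 0.0815% in T5 and 4.17 ± 0.83% in R5. The first of them, a model of 471 bp that shares reads with others, was at 2615, 3782 and 2569 CPM in T4 and at 1492, 851 and 1272 CPM in T5. No T5 library reached the lowest T4 library (log2 fold change -1.31 ± 0.30, SE, edgeR adjusted p = 0.004). Its T0 mean was 23827 CPM, far above every T4 library. A model of 461 bp fell the most of these 5, from 1564, 2928 and 2221 CPM to 790, 291 and 504 CPM (log2 fold change -2.08 ± 0.35, edgeR adjusted p = 0.000188). In R5 this model had 5682 ± 705 CPM. All 5 were also lower in T6 than in T3 (edgeR adjusted p from 1.53e-05 to 0.000225).

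Among the 5 most abundant risers, a model of 1675 bp had 287, 242 and 227 CPM in T4 beside 1183, 907 and 937 CPM in T5. The T5 libraries lay above those of T4 by 2.00 ± 0.42 on the log2 scale (SE, edgeR adjusted p = 0.00152). The model was at 64.7 ± 15.4 CPM in T3 and 728 ± 39.2 CPM in T6, a separate comparison with a log2 fold change of 3.49. A model of 1635 bp went from 579, 500 and 499 CPM to 1498, 814 and 1025 CPM (log2 fold change 1.08 ± 0.33, edgeR adjusted p = 0.0275). This model had 10.1 ± 2.34 CPM in T0 and 2037 ± 230 CPM in T6. Of these 5, all but the most abundant, a model of 2255 bp, were also higher in T6 than in T3 by edgeR adjusted p. That model was at 1000 ± 306 CPM in T3, 824 ± 122 CPM in T4, 1691 ± 159 CPM in T5 and 1360 ± 186 CPM in T6 (edgeR adjusted p = 0.0707 for T6 against T3, with a log2 fold change of 0.44). Of the 128 risers at 100 CPM or more in T5, 119 (93.0%) were higher in T6 than in T3 by call, beside 9.22% of all tested models. Of the 80 fallers at 100 CPM or more in T4, 51 (63.7%) were lower in T6 than in T3, beside 8.62%, and 2 were higher. The shares of all models are over every level and not over models at 100 CPM or more. These shares depend on the precision that high counts give and were not compared by a test.

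The largest changes among models with almost only whole counts are given by identifier. Whole counts do not show that a model shares no reads. They had at least 10 CPM in the higher group, no overlap between T4 and T5 libraries, a pass in all 6 fits that lacked a library, and at least 95% whole count values, and 151 loci with a riser and 92 with a faller met these conditions. Lj6g3v1903450.1, a model of 867 bp, had 0, 0 and 6 counts in the 3 T4 libraries and 2.41, 2.55 and 33.7 CPM in the T5 libraries. T5 replicate 3 stood far above the other 2, although all 3 lay above T4. The fitted change, 7.95 ± 1.29 on the log2 scale (SE, edgeR adjusted p = 0.000188) depends on the prior count, as T4 holds so few counts, and was 5.57 without T5 replicate 3 and 11.96 without T4 replicate 3, the only T4 library with counts. It had no counts in T0 and T1, was at 0.556, 0.0476 and 0.828 CPM in T3, and was at 22.5, 91.4 and 83.4 CPM in T6.

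Lj6g3v0339500.1, of 1117 bp, was at 0.953, 1.46 and 0.565 CPM in T4 and at 56.6, 8.80 and 81.2 CPM in T5. T5 replicate 2 was the low one of the 3, still above every T4 library. The log2 fold change was 5.62 ± 0.79 (SE, edgeR adjusted p = 1.84e-05) and lay between 5.04 and 6.10 without any 1 of the 6 libraries. In T3 one library was raised alone, at 7.88 CPM beside 1.26 and 1.12 CPM. The level in T6 was 113 ± 53.8 CPM, and it was higher than in T3 (log2 fold change 5.03 ± 0.74, edgeR adjusted p = 4.72e-06).

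The largest falls were smaller. Lj0g3v0338379.1, of 1496 bp, was at 29.4, 34.7 and 41.6 CPM in T4 and at 3.74, 6.02 and 6.66 CPM in T5 (log2 fold change -2.68 ± 0.51, SE, edgeR adjusted p = 0.000706). Its T3 libraries, at 38.4, 15.4 and 11.9 CPM, overlapped T4, and in T0 it was at 96.1 ± 18.5 CPM. After nitrate was removed it was at 3.70 ± 1.75 CPM in R1, 27.2 ± 14.9 CPM in R2 and 4.07 ± 1.09 CPM in R3, and at 31.8 ± 4.30 CPM in R5. Lj4g3v1151870.1, of 1473 bp, was at 27.8, 39.6 and 21.3 CPM in T4 and at 7.86, 2.53 and 4.68 CPM in T5 (log2 fold change -2.56 ± 0.43, SE, edgeR adjusted p = 0.00018). It was at 69.4 ± 7.24 CPM in T0, 67.2 ± 21.5 CPM in T2, 2.31 ± 0.60 CPM in T6 and 36.3 ± 5.88 CPM in R5, and the difference of T6 from T5 did not pass (edgeR adjusted p = 0.129). Both falls were also found between T3 and T6 (edgeR adjusted p = 0.000409 and 7.85e-07).

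The models named for the difference between the T5-T4 and the T4-T3 step are the 2 largest in each direction among those at 10 CPM or more in T3, T4 or T5, with at least 95% whole counts, that passed in all 9 fits lacking a library of T3, T4 or T5. Lj6g3v1903450.1 and Lj6g3v0339500.1 had larger differences, of 11.15 and 7.42 on the log2 scale (edgeR adjusted p = 0.0262 and 0.00414), but passed in 5 and 8 of these 9 fits. Lj5g3v0035520.1, of 1706 bp, went from 10.6, 4.60 and 23.6 CPM in T3 to 6.93, 3.60 and 6.54 CPM in T4, a difference that did not pass (edgeR adjusted p = 0.19). It then reached 83.9, 130 and 153 CPM in T5, so that the steps differed by 5.61 ± 0.94 on the log2 scale (SE, edgeR adjusted p = 0.0015). It was at 263 ± 29.0 CPM in T6, and in R5 at 205 ± 87.9 CPM it had no detectable difference from T6 (log2 fold change -0.36 ± 0.46, edgeR adjusted p = 0.555). Lj1g3v2141030.1, of 1520 bp, had a peak on day 5, with 1.24, 1.39 and 0.706 CPM in T4, 11.5, 17.0 and 16.4 CPM in T5, and 3.27, 4.63 and 5.92 CPM in T6. Its steps differed by 4.98 ± 0.89 (SE, edgeR adjusted p = 0.00241), and T6 did not differ detectably from T3 (log2 fold change 0.82 ± 0.45, edgeR adjusted p = 0.17).

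Both negative differences under these conditions belonged to models whose T4 level lay above those of T3 and T5. Lj0g3v0066279.1, of 1262 bp, had means of 216 CPM in T2, 51.8 CPM in T3, 332 CPM in T4, 113 CPM in T5 and 414 CPM in T6. It was at 416, 308 and 272 CPM in the T4 libraries and at 113, 135 and 89.2 CPM in the T5 libraries, without overlap (step difference -4.24 ± 0.82, SE, edgeR adjusted p = 0.00471). Lj0g3v0281729.1, of 1562 bp, had means of 18.5 CPM in T3, 68.5 CPM in T4, 24.5 CPM in T5 and 47.0 CPM in T6 (step difference -3.37 ± 0.40, SE, edgeR adjusted p = 0.000152). Here the T5 level was close to that of T3, and T4 was the day that stood out.

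**Figure D5:**
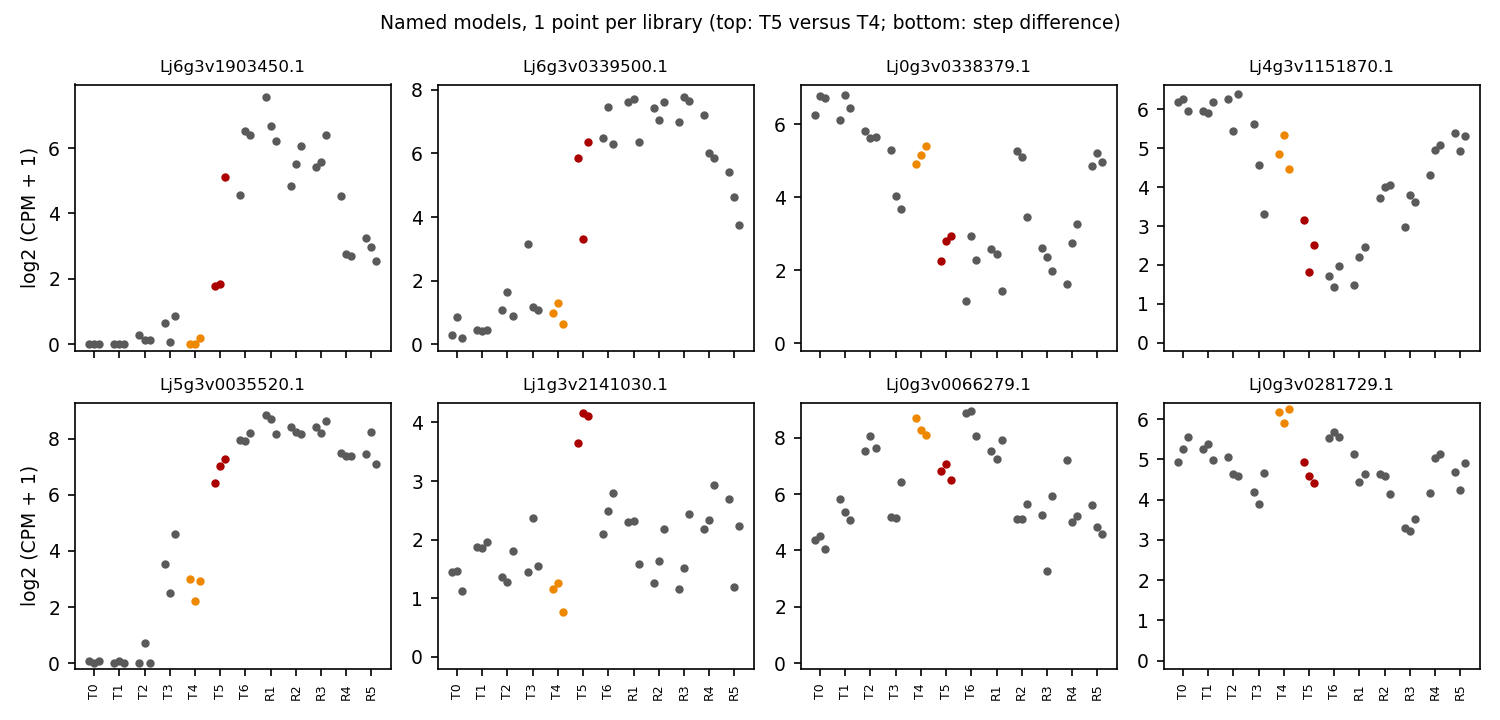
Level of the 8 named models in each library, as log2 of CPM + 1, with T4 in orange and T5 in red. The upper row shows the 2 largest rises and falls from T4 to T5, among them Lj6g3v0339500.1 at 0.565 to 1.46 CPM in T4 and 8.80 to 81.2 CPM in T5, and the lower row shows the 2 largest positive and negative differences between the T5-T4 and T4-T3 steps among models that passed in all 9 fits lacking a library, a condition that 2 models of the upper row with larger positive differences did not meet.

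After nitrate was removed, part of the risers and fallers of T5 changed in the opposite direction. On removal day 1, 121 risers (6.35%) were called lower than in T6, beside 0.408% of all models, and 21 fallers (1.99%) higher, beside 0.145%. By removal day 5, 896 risers (47.0%) were lower than in T6, beside 13.3% of all models, and 670 fallers (63.6%) were higher, beside 15.7%. Against untreated nodules, 1077 risers (56.5%) were still higher in R5, beside 8.58%, and 221 of the 1054 fallers were still lower, beside 3.56%. The share of all counts held by the fallers was 12.4 ± 1.97% in R5, beside 17.3% in T0. The risers' share went from 7.37% in T6 to 4.08 ± 0.26% in R2, then 5.29 ± 0.27% in R3 and 5.68 ± 1.51% in R4, and was 3.90 ± 0.64% in R5. Whether the return of risers and fallers differs was not tested.

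Length and level of the called models were set beside those of all models. The median length was 1142 bp for the risers, 1135 bp for the fallers and 1138 bp for all tested models, over the 42258 models whose length could be derived. In 5 equal classes of length the share of risers ran from 3.42% in the longest to 4.88% in the class of 1399 to 2116 bp, and that of fallers from 1.90% to 2.62%. The share called rose with level: 1.59% of the models under 1 CPM in both groups were risers and 1.25% fallers, beside 6.47% and 4.04% of the 1979 models at 100 CPM or more. The risers came from 1719 loci and the fallers from 929, and no locus held both. Of the 6895 tested loci with more than 1 model, 333 held a call, beside 2648 of all 41260 tested loci. Models of 1 locus can share reads.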

How the data were processed

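Per the labels' protocols, nodule RNA came from a TransZol extraction, and libraries were built with the NEBNext Ultra II kit. The submitters' processing notes name fastp 0.22.0, HISAT2 and featureCounts. No source used here names the build or annotation, or says how strand and multiply mapped reads were handled. The authors deposited estimated counts and FPKM values for 50526 transcript models. Of the deposited count values, 49.6% are not whole (tolerance 0.001), and 3753 rows equal another row. Reads were thus split over models, and a change may belong to a model with shared reads. The deposited FPKM values served only to derive model lengths. The RefSeq table for LjGifu_v1.2 matched 0 identifiers, so the planned marker lists could not be used.

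Counts were rounded and tested by the quasi-likelihood method of edgeR 4.0.16 under R 4.3.3, with TMM scaling and filterByExpr, in 1 fit of all 36 libraries, with p-values adjusted over the 50475 models that passed the filter. SEs were derived from the fold change and the F statistic. Levels are CPM on TMM-scaled library sizes. Positions on a line used log2 CPM with a prior count of 2, and library distances used the same values. Positions were compared by exact permutation tests, two-sided. Alternatives were RLE scaling, no filter, DESeq2 1.42.0, fewer libraries in the fit, a replicate block, sums per locus, models with whole counts, and each library left out. The named models are the 2 largest rises and falls that met the conditions given with them, 1 per locus; 5 abundant models in each direction, described by length only, were chosen after their values were seen. The procedure was tested on simulated data with known changes. Comparison, alternatives and rules were chosen with earlier results of these data known. Pairs of T4 and of T5 libraries differed by a chi-square of 13.0 to 58.5 per degree of freedom, and none was treated as a duplicate.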

Additional observations from a re-analysis of the deposited data

Results flagged for a closer look

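All 3 per-model tests of the difference between daily steps had calls, each by edgeR's quasi-likelihood test with an adjusted p under 0.05 and a difference of at least 1 on the log2 scale. The T5-T4 step differed from the T4-T3 step in 1110 models, from the T3-T2 step in 1515 models, and from the T6-T5 step in 1566 models.

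Of the models named for the first of these tests, Lj5g3v0035520.1 differed by 5.61 and Lj1g3v2141030.1 by 4.98 in the upward direction. Lj0g3v0066279.1 differed by -4.24 and Lj0g3v0281729.1 by -3.37, and both had a T4 level above the levels of T3 and T5.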

How the results depend on the processing

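The T5-T4 counts of 1905 risers and 1054 fallers stayed within 1.5 times under RLE scaling, no filter, DESeq2, a fit of the T0 to T6 libraries, a fit of the T4 and T5 libraries alone (1556 and 843), sums per locus and the replicate block. With no fold threshold they were 3645 and 2377. With only models of at least 95% whole counts, which leaves 12089 models to test, there were 472 risers, 331 fallers, 308 calls for T4-T3, 621 for T6-T5, 367, 412 and 520 calls for the differences of T5-T4 from T4-T3, from T3-T2 and of T6-T5 from T5-T4, and 529 T5-T4 calls repeated in T6 against T3, beside 2105. DESeq2 gave 1845 calls for the difference of T5-T4 from T4-T3, beside 1110; the cause was not tested. The line from T3 to T6 gave 41.3 points for T5 minus T4 and 20.4 points for the step difference, beside 16.3 and 2.78 on the line from T0 to T6. The step from T4 to T5 was thus further ahead of the step before it on that line, and the cause was not tested.

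With 1 library of T3 to T6 left out, risers ran from 1149 to 1909, fallers from 724 to 1466, T4-T3 calls from 417 to 1166, T6-T5 calls from 1271 to 2714, and calls repeated in T6 against T3 from 1512 to 2125. The differences of T5-T4 from T4-T3 ran from 250 to 1482, from T3-T2 from 1011 to 1634, and of T6-T5 from T5-T4 from 645 to 2111. On the line from T0 to T6 the step ran from 15.4 to 17.8 points and the step difference from -1.66 to 6.90 points, so its sign was not stable. The 8 named models kept their call and direction under every alternative run, with an adjusted p of at most 0.0397. Their choice required a pass with the same sign in the 6 or 9 fits lacking a library of the days compared. Those fits, among them the one that gave 0.0397, thus add no support. In the other alternatives the highest edgeR adjusted p was 0.0165, for Lj6g3v1903450.1 in the fit of the T4 and T5 libraries alone.

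The replicate numbers of T4 and T5 were not shown to pair the samples: deviations of same-numbered libraries correlated at -0.01, -0.19 and -0.19 across models, and no library correlated best with its own number. With the replicate block there were 1801 risers and 1025 fallers, 924 calls for T4-T3 and 987 for the difference of T5-T4 from T4-T3.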
